A study of Mus musculus with 9 samples.

Results

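The 8 genes described here are 6 genes of stromal fibroblast identity (Pdgfra, Pdgfrb, Vim, Cd34, Rarres2 and Zeb2) and the pair of homeobox genes Hoxa10 and Hoxa11. They were chosen by name from the 15158 gene symbols of an expression table of mouse uterine luminal epithelium, and all 8 were among the 12347 genes that were tested. Tissue was taken by laser capture on pregnancy day 4 from mated females that had been housed until 8 weeks of age. The 3 genotypes were ePRAoe (Wnt7acre/+PgrALsL/+), in which an allele for isoform A of the progesterone receptor is switched on by cre, ePRBoe (Wnt7acre/+PgrBLsL/+), with the same for isoform B, and Wnt7acre, the controls that carry the cre alone. Wnt7acre, a cre transgene driven by the Wnt7a promoter and active in uterine epithelium, was thus present in every animal of all 3 groups, and each group had 3 libraries. Bioreplicates are numbered in the labels without animals being named, so p-values cover the spread among the 9 samples and no more.

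The uterine stroma is the connective tissue that lies beneath the luminal epithelium and turns into decidua after an embryo attaches. Its fibroblasts carry receptors for platelet-derived growth factors, are rich in the intermediate filament vimentin, and secrete collagen and other matrix proteins. Hoxa10 and Hoxa11 are neighbouring genes of the HoxA cluster that pattern the developing Müllerian duct, and mice without either gene have defects of implantation and of the stromal response to progesterone. In the uterus at this stage both are transcribed mainly in stroma, while the luminal epithelium is marked by keratins, claudins and E-cadherin.

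Pgr, the gene of the progesterone receptor, checks the genotypes as far as a single value per gene can, since both isoforms count towards it. It had 41.7, 49.5 and 42.8 FPKM (sequenced fragments, normalized for gene length and library depth) in ePRAoe, 38.1, 38.3 and 45.9 FPKM in ePRBoe, and 17.4, 3.82 and 6.62 FPKM in Wnt7acre. No ePRAoe or ePRBoe library overlapped with Wnt7acre, and Pgr passed the test in ePRAoe (log2 fold change 2.38, limma adjusted p = 0.00483) and in ePRBoe (2.27, adjusted p = 0.0168). The ePRBoe call of Pgr was lost without ePRAoe replicate 2, ePRBoe replicate 2, ePRBoe replicate 3 or Wnt7acre replicate 3 (adjusted p up to 0.186). Libraries summed to 272213 to 314010 FPKM, and 11074 to 12300 genes reached 1 FPKM in them. All 16 luminal epithelium markers examined were detected, with summed levels of 1786 to 2488 FPKM in ePRAoe, 2134 to 2407 FPKM in ePRBoe and 2270 to 2498 FPKM in Wnt7acre, so the labelled tissue carried its defining markers. The sequencing runs named in the labels were spread unevenly over the genotypes: run 1 held all 3 ePRBoe libraries with ePRAoe replicate 2 and Wnt7acre replicate 3, run 2 held ePRAoe replicate 3 and Wnt7acre replicate 2, and run 3 held ePRAoe replicate 1 and Wnt7acre replicate 1. With a run term, leaving out either library of run 2 gives the same differences, and so does leaving out either library of run 3. For ePRAoe against Wnt7acre the same holds for ePRAoe replicate 2 and Wnt7acre replicate 3. Fits with 1 library left out are therefore not all separate checks.

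The upstream sequences of 3 members are shown because the results turn on these genes: Hoxa11 and Pdgfra were called in both overexpressing genotypes with any 1 library left out, and Hoxa10 lies next to Hoxa11. Each is the 250 bases before a transcription start in RefSeq (GRCm38.p6), written 5′ to 3′ on the gene's strand in lower case. Capitals mark a match to 1 of 5 motifs searched on both strands: the half-site of the progesterone receptor AGAACA, the E-box of letters CAGGTG that ZEB and SNAI factors bind, the GC box GGGCGG, the TATA box TATAAA and the CCAAT box. No motif lies within another. The Hoxa11 window is chr6:52245811-52246060, reverse strand. The Hoxa10 window, for the more upstream of 2 starts in the table, is chr6:52240855-52241104, reverse strand. The Pdgfra window is chr5:75152001-75152250, forward strand. The RefSeq start behind it lies upstream of the first start of Pdgfra in GENCODE, at 75152292, and the bases after it were not found in the GENCODE transcripts, so the window is placed by RefSeq alone.
Hoxa11: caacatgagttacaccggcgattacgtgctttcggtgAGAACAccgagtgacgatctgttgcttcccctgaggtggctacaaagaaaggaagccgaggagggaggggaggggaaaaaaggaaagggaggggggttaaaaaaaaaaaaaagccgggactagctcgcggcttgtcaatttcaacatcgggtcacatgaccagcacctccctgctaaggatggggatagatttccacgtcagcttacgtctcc
Hoxa10: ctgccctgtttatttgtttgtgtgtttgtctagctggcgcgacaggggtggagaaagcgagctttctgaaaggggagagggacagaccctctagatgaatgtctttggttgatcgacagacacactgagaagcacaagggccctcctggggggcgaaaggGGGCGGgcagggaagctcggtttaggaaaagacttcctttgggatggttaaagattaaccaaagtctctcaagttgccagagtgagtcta
Pdgfra: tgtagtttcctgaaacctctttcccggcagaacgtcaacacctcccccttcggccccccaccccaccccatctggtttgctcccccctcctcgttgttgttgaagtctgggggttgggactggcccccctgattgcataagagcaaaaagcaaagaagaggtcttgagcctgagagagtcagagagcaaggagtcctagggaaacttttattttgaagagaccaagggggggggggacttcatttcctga
The Hoxa11 window held 1 half-site, which began 213 bases before the start, and no match to the other 4 motifs. The Hoxa10 window held 1 GC box, beginning 90 bases before the start, and the Pdgfra window held no match. Of 32851 upstream windows of the same length, 16.1% held the half-site, 17.2% the E-box, 32.7% the GC box, 12.4% the TATA box and 33.8% the CCAAT box. The matches are descriptions of letters and do not mark binding sites. The 3 windows contained 52.0%, 51.6% and 54.4% G and C bases in the order shown, against a median of 52.4% over all windows. The windows of Vim, with a TATA box 32 bases before its start and a CCAAT box on each strand, of Cd34, with no match, and of the 4 starts of Zeb2 were also searched. Each Zeb2 window held a CCAAT box or a GC box. The bases after the most upstream Zeb2 start were not found in the GENCODE transcripts. The window of the other Hoxa10 start held a TATA box beginning 160 bases before it and a CCAAT box beginning 64 bases before it, both on the opposite strand. None of the windows of Hoxa10, Hoxa11, Pdgfra, Vim, Cd34 and Zeb2 held the E-box, and among them only that of Hoxa11 held the half-site.

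All 8 genes were higher in ePRAoe and in ePRBoe than in Wnt7acre, with no overlap between libraries in either comparison. In ePRAoe 6 of the 8 rose and 0 fell, with Pdgfrb and Zeb2 not passing, and the means were 1.90 to 3.38 times those of Wnt7acre. In ePRBoe 7 of the 8 rose and 0 fell, with Zeb2 not passing, and the means were 3.07 to 7.92 times those of Wnt7acre. Over all tested genes 16.2% passed in ePRAoe, 7.2% upward and 8.98% downward, and 8.89% passed in ePRBoe, 6.41% upward and 2.48% downward, while 12.6% in ePRAoe and 23.5% in ePRBoe had all 3 libraries above all 3 of Wnt7acre. An unadjusted p under 0.05 by limma was reached by 3936 of the 12347 tested genes in ePRAoe and by 3182 in ePRBoe. Counts at that p given below for lists of genes are to be read against these. The median log2 fold change of the 8 genes was 1.05 in ePRAoe and 1.89 in ePRBoe, against -0.03 and 0.10 over all tested genes. Fold changes are differences of log2(FPKM + 1) from limma, fitted over all 9 libraries with terms for genotype and sequencing run, and p-values are two-sided and adjusted over all 12347 genes by the method of Benjamini and Hochberg with a threshold of 0.05. Both comparisons use the same 3 control libraries, so they are not independent of each other. In these bulk samples, a change in the number of cells of a type and a change in RNA per cell cannot be told apart.

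**Figure D1:**
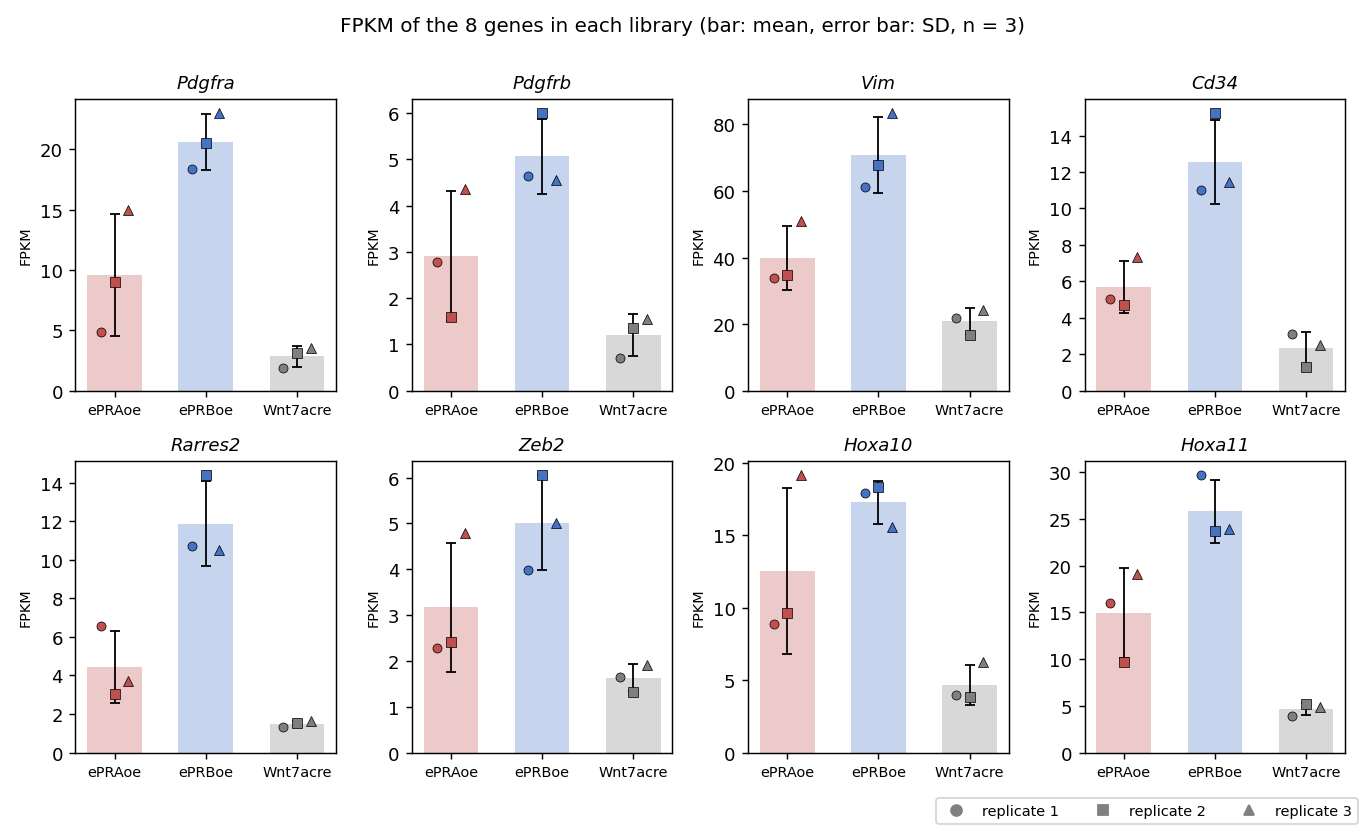
FPKM of each of the 8 genes by genotype, with 1 panel per gene, a point for each library, a bar for the mean and an error bar for the SD (n = 3 per genotype). In every panel the 3 Wnt7acre points lie below all ePRAoe and ePRBoe points, and ePRAoe and ePRBoe points overlap for Zeb2 and Hoxa10.

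The receptors of platelet-derived growth factors, tyrosine kinases that fibroblasts and pericytes use to respond to these growth factors, are given first. Pdgfra (alpha receptor, chr5:75152292-75198215, forward strand, mm10), a marker of fibroblasts, had 4.87, 9.04 and 14.9 FPKM in ePRAoe, 18.4, 20.5 and 23.0 FPKM in ePRBoe, and 1.86, 3.13 and 3.53 FPKM in Wnt7acre. The 3 genotypes did not overlap, and ePRAoe was the most spread of them, with replicate 1 nearest to the controls. Its means were 9.62 ± 5.07 FPKM in ePRAoe, 20.6 ± 2.30 FPKM in ePRBoe and 2.84 ± 0.872 FPKM in Wnt7acre (SD, n = 3 each). Pdgfra rose by 1.38 on the log2 scale in ePRAoe (SE 0.20, limma adjusted p = 0.00575). It rose by 2.36 in ePRBoe (SE 0.25, limma adjusted p = 0.00458). Both calls held with any 1 library left out (adjusted p up to 0.0313 in ePRAoe and 0.0363 in ePRBoe), and the ePRAoe call was lost when only ePRAoe and Wnt7acre were fitted, without a run term (0.0754).

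Pdgfrb (beta receptor, chr18:61045150-61085061, forward strand), which pericytes carry as well as fibroblasts, had 2.78, 1.59 and 4.37 FPKM in ePRAoe, 4.65, 5.997 and 4.55 FPKM in ePRBoe, and 0.702, 1.36 and 1.56 FPKM in Wnt7acre. The lowest ePRAoe library, replicate 2, lay just above the highest control. The means were 2.91 ± 1.40 FPKM in ePRAoe, 5.06 ± 0.809 FPKM in ePRBoe and 1.21 ± 0.449 FPKM in Wnt7acre (SD, n = 3 each). Pdgfrb did not pass in ePRAoe (0.78, SE 0.26, adjusted p = 0.0801), and within run 1 the ePRAoe library exceeded the Wnt7acre library by only 0.02 on the log2 scale, against 1.18 in run 2 and 1.15 in run 3. Without ePRAoe replicate 2 or Wnt7acre replicate 3, the run 1 libraries of these genotypes, the difference was 1.17 and passed (adjusted p = 0.0356 and 0.0357). Pdgfrb rose by 1.62 in ePRBoe (SE 0.32, limma adjusted p = 0.0231), a call that was lost without ePRAoe replicate 2 or any 1 ePRBoe library (0.0552 to 0.0735). The ratio of Pdgfra to Pdgfrb, per gene length as the authors set it, was 1.75, 5.70 and 3.422 in ePRAoe, 3.96, 3.417 and 5.05 in ePRBoe and 2.65, 2.30 and 2.27 in Wnt7acre. Every ePRBoe ratio exceeded every Wnt7acre ratio, whereas the ePRAoe ratios lay on both sides of those of Wnt7acre.

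Among the 4 ligands of these receptors, Pdgfa, which binds the alpha receptor, was the most abundant, at 32.4 ± 13.7 FPKM in ePRAoe, 20.7 ± 3.16 FPKM in ePRBoe and 42.4 ± 11.9 FPKM in Wnt7acre (SD, n = 3 each). Pdgfa fell by 1.34 on the log2 scale in ePRBoe (adjusted p = 0.0185), opposite to its receptor, and had a difference of -0.42 in ePRAoe that did not pass (0.200). Pdgfd, a ligand of the beta receptor, averaged 2.47 ± 0.381 FPKM in ePRAoe, 4.51 ± 0.801 FPKM in ePRBoe and 0.734 ± 0.458 FPKM in Wnt7acre. It rose in both overexpressing genotypes (1.03, adjusted p = 0.0257 in ePRAoe and 1.58, adjusted p = 0.0185 in ePRBoe). Of the 4 ligands 1 rose and 0 fell in ePRAoe, and 1 rose and 1 fell in ePRBoe. The ePRBoe calls of Pdgfa and Pdgfd were both lost without ePRAoe replicate 2, ePRBoe replicate 2 or ePRBoe replicate 3 (adjusted p up to 0.0632 and 0.0608), and the ePRAoe call of Pdgfd without ePRAoe replicate 1 or 3 or Wnt7acre replicate 1 or 2 (up to 0.125).

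Vim (vimentin, chr2:13573927-13582826, forward strand) encodes the intermediate filament of mesenchymal cells, and endothelial and immune cells make it too. It was the most abundant of the 8 genes in every library, with 33.9, 34.9 and 51.1 FPKM in ePRAoe, 61.1, 67.9 and 83.4 FPKM in ePRBoe, and 22.0, 16.7 and 24.3 FPKM in Wnt7acre. The 3 genotypes were separate, in the order ePRBoe, ePRAoe, Wnt7acre from high to low. Vim rose by 0.89 on the log2 scale in ePRAoe (SE 0.22, limma adjusted p = 0.0350). It rose by 1.68 in ePRBoe (SE 0.27, limma adjusted p = 0.0132). The ePRAoe call was lost without ePRAoe replicate 2 or 3, ePRBoe replicate 1 or 2, or Wnt7acre replicate 2 or 3 (adjusted p up to 0.122). The ePRBoe call was lost without ePRAoe replicate 2 (0.0580) or Wnt7acre replicate 3 (0.0657).

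Cd34 (chr1:194938819-194961279, forward strand) encodes a sialomucin of the surface of fibroblasts, endothelial cells and blood progenitors. It had 5.02, 4.70 and 7.34 FPKM in ePRAoe, 11.02, 15.2 and 11.4 FPKM in ePRBoe, and 3.13, 1.31 and 2.52 FPKM in Wnt7acre. All ePRBoe libraries were above all ePRAoe libraries, and all of these above Wnt7acre, of which replicate 2 was the lowest. Cd34 rose by 1.03 on the log2 scale in ePRAoe (SE 0.27, limma adjusted p = 0.0401) and by 2.10 in ePRBoe (SE 0.33, limma adjusted p = 0.0121). The ePRAoe call held without ePRAoe replicate 1 or without Wnt7acre replicate 1 and was lost without any 1 of the other 7 libraries (adjusted p up to 0.141). The ePRBoe call was lost without ePRAoe replicate 2 (0.0574) or Wnt7acre replicate 3 (0.0778). Podxl, a sialomucin of the same family that epithelia express, passed in neither genotype, with differences of 0.69 in ePRAoe (adjusted p = 0.321) and -0.08 in ePRBoe (0.946).

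Rarres2 (chr6:48569696-48572789, reverse strand) encodes chemerin, a secreted chemoattractant and adipokine that fibroblasts make. It had 6.57, 3.06 and 3.69 FPKM in ePRAoe, 10.7, 14.4 and 10.53 FPKM in ePRBoe, and 1.35, 1.53 and 1.62 FPKM in Wnt7acre. The controls were tight, the 3 genotypes did not overlap, and ePRAoe replicate 1 was the highest of its group, unlike for the other 7 genes. Its means were 4.44 ± 1.87 FPKM in ePRAoe, 11.9 ± 2.19 FPKM in ePRBoe and 1.499 ± 0.138 FPKM in Wnt7acre (SD, n = 3 each). Rarres2 rose by 1.07 on the log2 scale in ePRAoe (SE 0.24, limma adjusted p = 0.0222), a call lost without ePRAoe replicate 3 (0.0751) or Wnt7acre replicate 2 (0.0744). It rose by 2.503 in ePRBoe, the largest of the 8 differences (SE 0.29, limma adjusted p = 0.00555), and held with any 1 library left out (up to 0.0332). Its values rest on the fewest reads of the genes for which reads could be recovered, 34 to 73 in ePRAoe, 117 to 160 in ePRBoe and 15 to 18 in Wnt7acre. A count of 15 has a 95% Poisson interval of 8.40 to 24.7, which covers counting error only. Lrrc61 lies on the opposite strand and shares 892 bases, 33.6% of the annotated exonic bases of Rarres2. As neither the strand setting nor the gene lengths of the counting are stated, the level of Rarres2 is uncertain by an unknown amount. Lrrc61 had 14.6, 7.92 and 8.65 FPKM in ePRAoe, 10.8, 13.7 and 12.6 FPKM in ePRBoe, and 8.18, 9.32 and 10.6 FPKM in Wnt7acre, with overlap between ePRAoe and Wnt7acre, while all ePRBoe libraries were above all Wnt7acre libraries. Of the receptors of chemerin, the signalling receptor Cmklr1 averaged 1.55 ± 0.953 FPKM in ePRAoe, 1.97 ± 0.329 FPKM in ePRBoe and 0.671 ± 0.292 FPKM in Wnt7acre (SD, n = 3 each). It was the 1 receptor tested, Ccrl2 being too low, and passed neither in ePRAoe (0.55, adjusted p = 0.245) nor in ePRBoe (0.88, adjusted p = 0.174), with 0 and 1 unadjusted p under 0.05.

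Zeb2 (chr2:44983632-45117395, reverse strand) encodes a zinc finger repressor of E-cadherin, known from epithelial to mesenchymal transition and present in fibroblasts, endothelial cells and macrophages. It had 2.29, 2.42 and 4.80 FPKM in ePRAoe, 3.98, 6.06 and 5.01 FPKM in ePRBoe, and 1.64, 1.33 and 1.92 FPKM in Wnt7acre. Both overexpressing genotypes were above Wnt7acre in every library, and ePRAoe replicate 3 lay within the range of ePRBoe. Zeb2 was the 1 gene of the 8 that passed in neither comparison with Wnt7acre, with a difference of 0.62 in ePRAoe (SE 0.25, limma adjusted p = 0.142). In ePRBoe the difference was 1.22 (SE 0.31, limma adjusted p = 0.0520), just above the threshold, and it passed without ePRAoe replicate 1 or 3 or Wnt7acre replicate 1 or 2 (0.0457 to 0.0498). The related factors Zeb1, Snai1 and Snai2 had positive differences in both genotypes, and 1 of the 3 passed in each. That was Snai1, another repressor of E-cadherin, at 4.04 ± 1.45 FPKM in ePRAoe, 6.29 ± 0.682 FPKM in ePRBoe and 0.924 ± 0.312 FPKM in Wnt7acre (SD, n = 3 each). Snai1 rose by 1.36 in ePRAoe (adjusted p = 0.00413) and by 2.28 in ePRBoe (adjusted p = 0.00317), and both calls held with any 1 library left out. Cdh1, the E-cadherin gene, looked up as a target of these repressors, did not pass in either genotype (-0.02, adjusted p = 0.959 in ePRAoe and -0.42, adjusted p = 0.237 in ePRBoe). All ePRBoe libraries of Cdh1, at 155 to 168 FPKM, were below all Wnt7acre libraries, at 203 to 224 FPKM. The same order was seen for 2013 of the 12347 tested genes, and ePRAoe overlapped with Wnt7acre.

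Hoxa10 (chr6:52231197-52240854, reverse strand), a homeobox factor required for the proliferation and decidualization of uterine stroma, had 8.88, 9.61 and 19.2 FPKM in ePRAoe, 17.9, 18.3 and 15.6 FPKM in ePRBoe, and 3.94, 3.85 and 6.27 FPKM in Wnt7acre. The highest of the 9 libraries was ePRAoe replicate 3, above all ePRBoe libraries, while the other ePRAoe libraries stood between the controls and ePRBoe. The means were 12.6 ± 5.74 FPKM in ePRAoe, 17.3 ± 1.48 FPKM in ePRBoe and 4.69 ± 1.37 FPKM in Wnt7acre (SD, n = 3 each). Hoxa10 rose by 1.20 on the log2 scale in ePRAoe (SE 0.26, limma adjusted p = 0.0221), a call lost without ePRAoe replicate 3 (0.77, adjusted p = 0.0611) or Wnt7acre replicate 2 (0.77, 0.0576), the pair of run 2 and so not separate checks. It rose by 1.66 in ePRBoe (SE 0.32, limma adjusted p = 0.0227), a call lost without ePRAoe replicate 2, Wnt7acre replicate 3 or any 1 ePRBoe library (up to 0.0775). Within runs the difference of ePRAoe from Wnt7acre was 0.55 in run 1, 2.06 in run 2 and 1.00 in run 3.

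Hoxa11 (chr6:52242106-52245810, reverse strand), its neighbour and also a stromal homeobox factor needed for implantation, had 16.0, 9.67 and 19.1 FPKM in ePRAoe, 29.7, 23.8 and 23.99 FPKM in ePRBoe, and 3.95, 5.15 and 4.89 FPKM in Wnt7acre. The 3 genotypes were separate, and the lowest ePRAoe library still lay well above the controls. The means were 14.9 ± 4.82 FPKM in ePRAoe, 25.8 ± 3.38 FPKM in ePRBoe and 4.66 ± 0.628 FPKM in Wnt7acre (SD, n = 3 each). Hoxa11 rose by 1.45 on the log2 scale in ePRAoe (SE 0.20, limma adjusted p = 0.00520) and by 2.48 in ePRBoe (SE 0.25, limma adjusted p = 0.00439). Both calls held in each of the 21 alternative fits, with adjusted p up to 0.0380 in ePRAoe and 0.0241 in ePRBoe. Within runs the difference of ePRAoe from Wnt7acre was 0.86, 1.71 and 1.78 in runs 1, 2 and 3. The ratio of Hoxa11 to Hoxa10 was 1.80, 1.01 and 0.999 in ePRAoe, 1.66, 1.30 and 1.54 in ePRBoe and 1.00, 1.34 and 0.779 in Wnt7acre, with overlap between ePRBoe and Wnt7acre.

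The antisense gene Hoxa11os shares 800 bases with Hoxa11, 35.0% of its annotated exonic bases. Without a known strand setting the reads of these 2 genes cannot be told apart there. The level of Hoxa11 is therefore uncertain by an unknown amount. Hoxa11os had 8.64, 9.80 and 14.8 FPKM in ePRAoe, 28.1, 22.5 and 24.9 FPKM in ePRBoe, and 2.98, 5.79 and 2.89 FPKM in Wnt7acre, again with 3 separate genotypes. It rose by 1.32 in ePRAoe (limma adjusted p = 0.00233) and by 2.67 in ePRBoe (0.00169), and unlike its partner it also passed in the comparison of ePRBoe with ePRAoe (1.35, adjusted p = 0.0369). The last call held without ePRAoe replicate 1 or Wnt7acre replicate 1 and was lost without any 1 of the other 7 libraries (up to 0.428). Hoxa11os was looked up after the overlap had been found.

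Other posterior Hox genes were also examined. Of 14 listed genes of paralogue groups 9 to 13 outside the pair, 6 were in the table and 5 were tested, and 3 rose and 0 fell in each overexpressing genotype, all 3 from the HoxD cluster. Hoxd9 had 3.98, 4.34 and 8.69 FPKM in ePRAoe, 12.6, 14.0 and 12.2 FPKM in ePRBoe, and 1.85, 2.57 and 3.19 FPKM in Wnt7acre, and rose by 0.87 in ePRAoe (adjusted p = 0.0328) and by 1.99 in ePRBoe (0.00785). Hoxd10 rose by 1.09 in ePRAoe (adjusted p = 0.0393) and by 1.82 in ePRBoe (0.0214), and Hoxd11 by 1.24 in ePRAoe (0.0144) and by 2.09 in ePRBoe (0.00922). Hoxa9, the next gene of the cluster after Hoxa10, had low levels, with means of 1.20 ± 0.618 FPKM in ePRAoe, 2.39 ± 0.690 FPKM in ePRBoe and 0.636 ± 0.412 FPKM in Wnt7acre (SD, n = 3 each), and passed in neither genotype (0.42, adjusted p = 0.371 in ePRAoe and 1.13, adjusted p = 0.0969 in ePRBoe), although all ePRBoe libraries were above all Wnt7acre libraries. Hoxb9 had differences of -0.63 in ePRAoe (adjusted p = 0.0714) and -0.31 in ePRBoe (0.480). The ePRBoe calls of Hoxd9 and Hoxd11 held with any 1 library left out. That of Hoxd10 was lost without ePRAoe replicate 2, Wnt7acre replicate 3 or any 1 ePRBoe library (up to 0.0774). In ePRAoe, the calls of Hoxd9 and Hoxd10 held only without ePRAoe replicate 2 or without Wnt7acre replicate 3 (up to 0.130 and 0.139 otherwise), and that of Hoxd11 was lost without ePRAoe replicate 3 or Wnt7acre replicate 2 (up to 0.0771). The more anterior Hoxa3, Hoxa5 and Hoxa7 reached at most 1.09 FPKM in any library and were not tested.

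**Figure D2:**
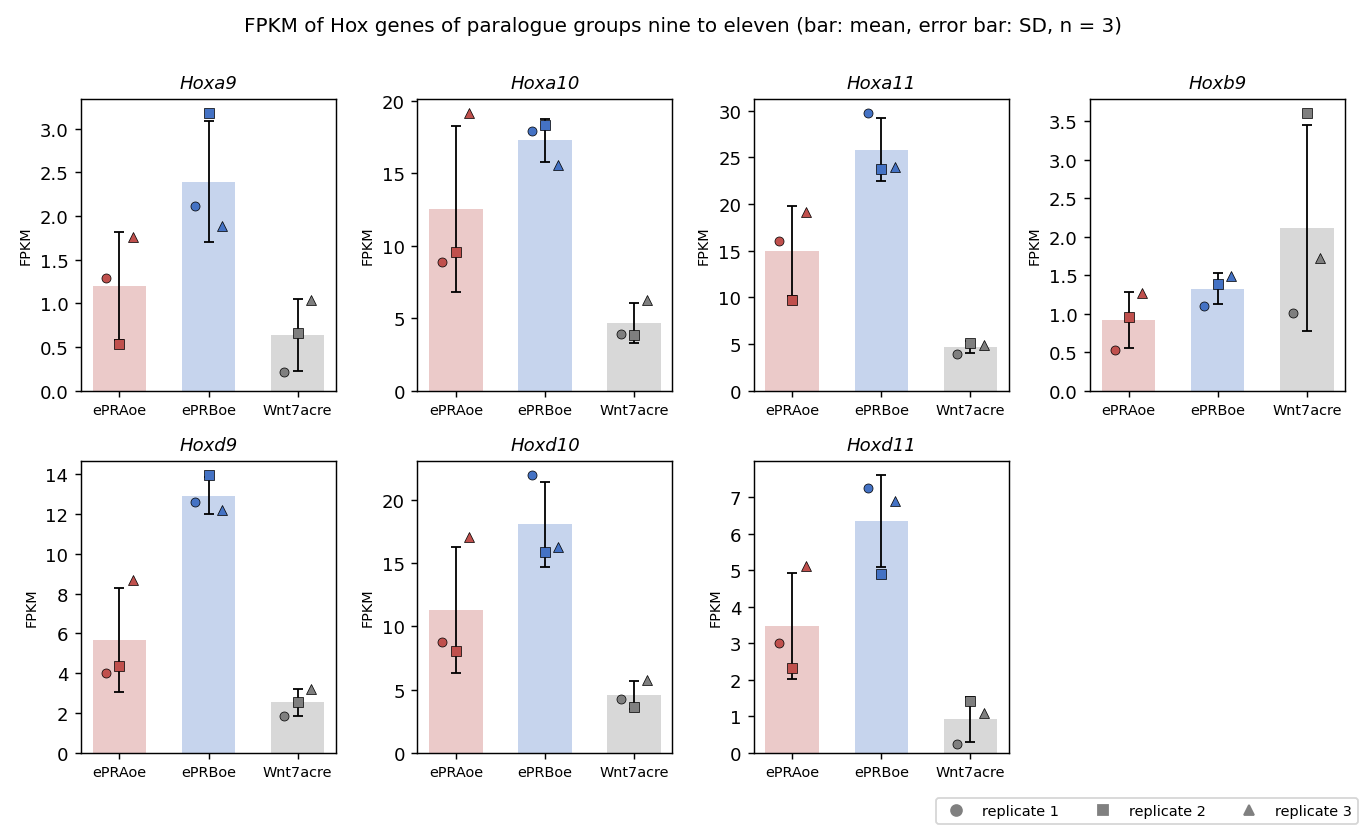
FPKM of Hoxa9, Hoxa10, Hoxa11, Hoxb9, Hoxd9, Hoxd10 and Hoxd11 by genotype, with a point for each library, a bar for the mean and an error bar for the SD (n = 3 per genotype). ePRAoe and ePRBoe points lie above all Wnt7acre points for Hoxa10, Hoxa11, Hoxd9, Hoxd10 and Hoxd11, whereas for Hoxb9 Wnt7acre replicate 2 is the highest library.

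HOX proteins bind DNA together with TALE homeodomain partners of the PBX and MEIS families. Of 6 tested partners 0 passed in ePRAoe by limma, with 0 at an unadjusted p under 0.05, and Meis1 had a difference of -0.35 (adjusted p = 0.195). In ePRBoe 1 of the 6 rose, Pbx2, by 0.68 (adjusted p = 0.0316), a call lost without ePRAoe replicate 2, Wnt7acre replicate 3 or any 1 ePRBoe library (up to 0.151). Genes linked to Hoxa10 and Hoxa11 in earlier uterine work, 5 in number with 3 tested, had 0 calls in either genotype by limma, with 2 at an unadjusted p under 0.05 in each. Over all 12347 tested genes, 3936 in ePRAoe and 3182 in ePRBoe had such a p. Among them Ptger4, a prostaglandin E receptor, had differences of 0.40 in ePRAoe (adjusted p = 0.113) and 0.52 in ePRBoe (0.126). Emx2, a homeobox gene that HOXA10 represses in endometrium, had 0.50 in ePRAoe (0.0801) and -0.09 in ePRBoe (0.815).

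The direct comparison of ePRBoe with ePRAoe asks whether the 2 isoforms differ. All 8 genes had higher means in ePRBoe, by 1.38 to 2.67 times, and for 6 of them, all but Zeb2 and Hoxa10, every ePRBoe library was above every ePRAoe library, against 16.8% of all tested genes. By limma 0 of the 8 passed, while over all tested genes 0.324% passed, 0.316% upward and 0.0081% downward, and 6 of the 8 had an unadjusted p under 0.05, which 15.2% of all tested genes reached upward. The median difference was 0.91, against 0.15 over all tested genes. The largest was that of Rarres2, 1.43 with a 95% interval of 0.76 to 2.10 (limma adjusted p = 0.0825). Without ePRAoe replicate 1 or Wnt7acre replicate 1, the pair of run 3, Rarres2 passed (1.59, adjusted p = 0.0293 and 0.0289). Cd34 had 1.07 (adjusted p = 0.166), Hoxa11 had 1.03 with an interval of 0.44 to 1.61 (0.114), and Pdgfra had 0.99 with an interval of 0.41 to 1.57 (0.120). Pdgfrb had 0.84 (0.226) and Vim had 0.80 (0.195). The intervals of Zeb2, -0.12 to 1.33 around 0.61 (adjusted p = 0.335), and of Hoxa10, -0.30 to 1.21 around 0.45 (0.470), included 0. The Hoxa10 difference turned to -0.20 without ePRAoe replicate 2 (adjusted p = 0.955), when run 1 held no ePRAoe library. Run 1 was the only run that held ePRBoe libraries. Within it, the mean of the 3 ePRBoe libraries exceeded ePRAoe replicate 2 by 0.78 to 1.65 on the log2 scale over the 8 genes. That ePRAoe library was the lowest of its group for Pdgfrb, Cd34, Rarres2 and Hoxa11. Sequencing run and genotype cannot be told apart for ePRBoe beyond this single ePRAoe library and single Wnt7acre library of run 1.

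**Figure D3:**
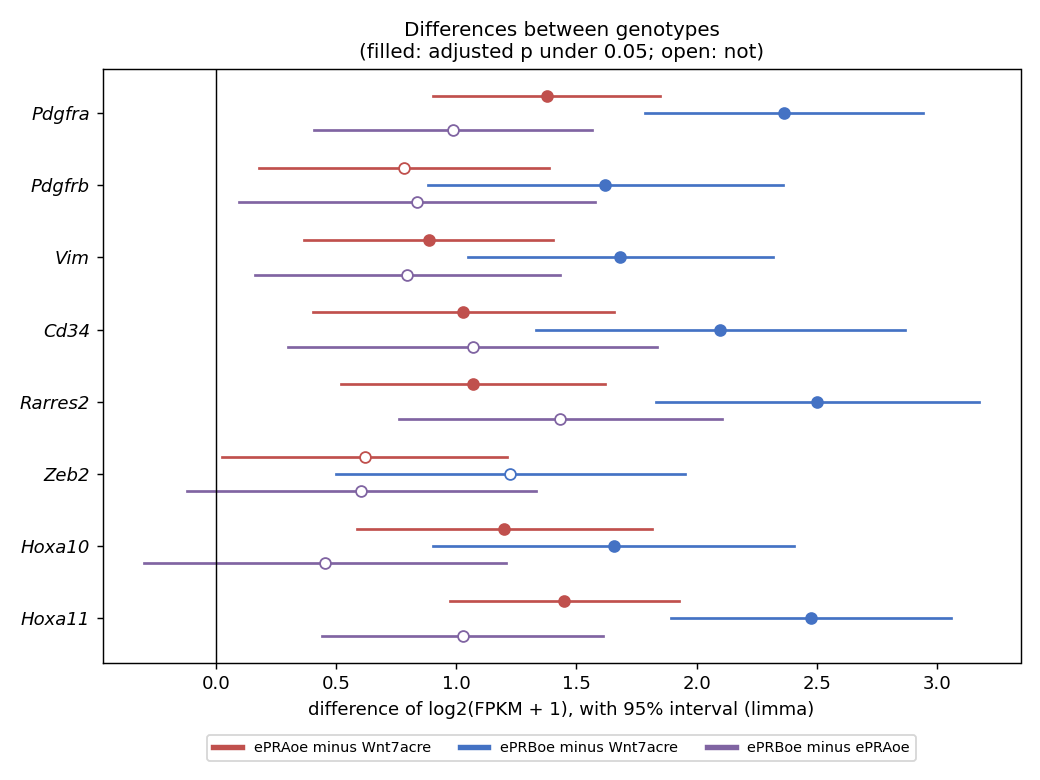
Differences of log2(FPKM + 1) between genotypes for each of the 8 genes with 95% intervals from limma, filled where the adjusted p was under 0.05. Differences of ePRAoe from Wnt7acre (red) run from 0.62 to 1.45, those of ePRBoe from Wnt7acre (blue) from 1.22 to 2.503, and those of ePRBoe from ePRAoe (purple) from 0.45 to 1.43, none of the last filled.

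Fibroblast genes outside the 8 moved as well. Of 11 other fibroblast markers, 7 rose and 1 fell in ePRAoe and 8 rose and 0 fell in ePRBoe, with median log2 fold changes of 1.23 and 1.90. The matrix protease Mmp2 rose by 1.23 in ePRAoe and 2.19 in ePRBoe, fibrillin 1 (Fbn1) by 1.37 and 1.86 in the same order, and dermatopontin (Dpt) by 2.28 and 3.02. Type III collagen (Col3a1) rose by 1.57 in ePRAoe and by 1.90 in ePRBoe. The surface protein Thy1 rose by 1.504 in ePRBoe and did not pass in ePRAoe (0.33, limma adjusted p = 0.183). In ePRBoe, Fbn1 and Col3a1 lost their calls without Wnt7acre replicate 3 (adjusted p = 0.0650 and 0.0617). The other calls given here for these 5 genes held with any 1 library left out. Fibulin 1 (Fbln1), named after its values were seen because it was the 1 marker that fell, fell by 1.32 in ePRAoe (adjusted p = 0.0456), and its call was lost without ePRAoe replicate 2 or 3, ePRBoe replicate 3 or Wnt7acre replicate 2 or 3 (up to 0.208). The summed level of the 11 markers was 175 to 327 FPKM in ePRAoe, 317 to 426 FPKM in ePRBoe and 84.1 to 126 FPKM in Wnt7acre. Among 6 tested transcription factors of uterine stroma, 2 rose in ePRAoe (Wt1 by 1.03 and Twist2 by 1.24) and 3 rose in ePRBoe (Hand2 by 2.21, Wt1 by 2.03 and Twist2 by 1.63), and 0 fell. Hand2, which progesterone induces in stroma, averaged 6.69 ± 3.55 FPKM in ePRAoe, 16.1 ± 3.37 FPKM in ePRBoe and 3.50 ± 1.36 FPKM in Wnt7acre (SD, n = 3 each), and its ePRBoe call held with any 1 library left out. The Wt1 call held in 2 of 9 fits with 1 library left out in ePRAoe (up to 0.171 in the 7 without ePRAoe replicate 1, 2 or 3, ePRBoe replicate 2, or Wnt7acre replicate 1, 2 or 3) and in 7 of 9 in ePRBoe (lost without ePRAoe replicate 2 or Wnt7acre replicate 3, up to 0.0706). The Twist2 call was lost without ePRAoe replicate 2 or 3 or Wnt7acre replicate 2 or 3 in ePRAoe (up to 0.0892), and without ePRAoe replicate 2, Wnt7acre replicate 3 or any 1 ePRBoe library in ePRBoe (up to 0.121).

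Set against the mean log2(FPKM + 1) of those 11 markers in the same library, the 8 genes differed less between genotypes. That mean was 3.80, 3.94 and 4.67 in ePRAoe, 4.63, 4.83 and 5.02 in ePRBoe and 2.72, 3.25 and 3.25 in Wnt7acre, a group difference of 1.06 in ePRAoe and 1.75 in ePRBoe. Relative to it, Pdgfra was at -1.24, -0.62 and -0.68 in ePRAoe, -0.35, -0.40 and -0.44 in ePRBoe and -1.20, -1.20 and -1.07 in Wnt7acre. All ePRBoe libraries were thus above all ePRAoe and Wnt7acre libraries for Pdgfra, also on this relative scale, while ePRAoe replicate 1 fell below the controls. Pdgfrb was at -1.88, -2.57 and -2.25 in ePRAoe, -2.14, -2.02 and -2.55 in ePRBoe and -1.95, -2.01 and -1.90 in Wnt7acre, so that on this scale every ePRBoe library was below every control, the highest of them narrowly. This order depends on the added 1 FPKM, which compresses Pdgfrb, at 0.702 to 1.56 FPKM in Wnt7acre, more than most markers. Without it, the Pdgfrb mean in ePRBoe was 4.19 times that in Wnt7acre. The markers had mean sums of 378 FPKM in ePRBoe and 110 FPKM in Wnt7acre. Zeb2 and Rarres2, also low in Wnt7acre, are compressed in the same way. Hoxa11 was at 0.29, -0.53 and -0.34 in ePRAoe, 0.31, -0.20 and -0.38 in ePRBoe and -0.41, -0.63 and -0.69 in Wnt7acre, with ePRBoe above Wnt7acre in every library. Hoxa10 was at -0.49, -0.54 and -0.34 in ePRAoe, -0.39, -0.55 and -0.97 in ePRBoe and -0.41, -0.97 and -0.39 in Wnt7acre, so that its genotypes overlapped. Rarres2 was at -0.87, -1.92 and -2.44 in ePRAoe, -1.08, -0.88 and -1.495 in ePRBoe and -1.488, -1.91 and -1.86 in Wnt7acre. Its lowest ePRBoe library was narrowly below the highest control, so that its genotypes overlapped. Zeb2 was lower relative to the markers in ePRAoe, at -2.08, -2.17 and -2.14, than in Wnt7acre, at -1.32, -2.03 and -1.70, and ePRBoe, at -2.32, -2.01 and -2.43, overlapped with Wnt7acre. Group means of the relative level differed from Wnt7acre by -0.44 to 0.39 in ePRAoe and by -0.57 to 0.76 in ePRBoe over the 8 genes. These relative levels are descriptions with no test, because the markers and the genes come from the same libraries.

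**Figure D4:**
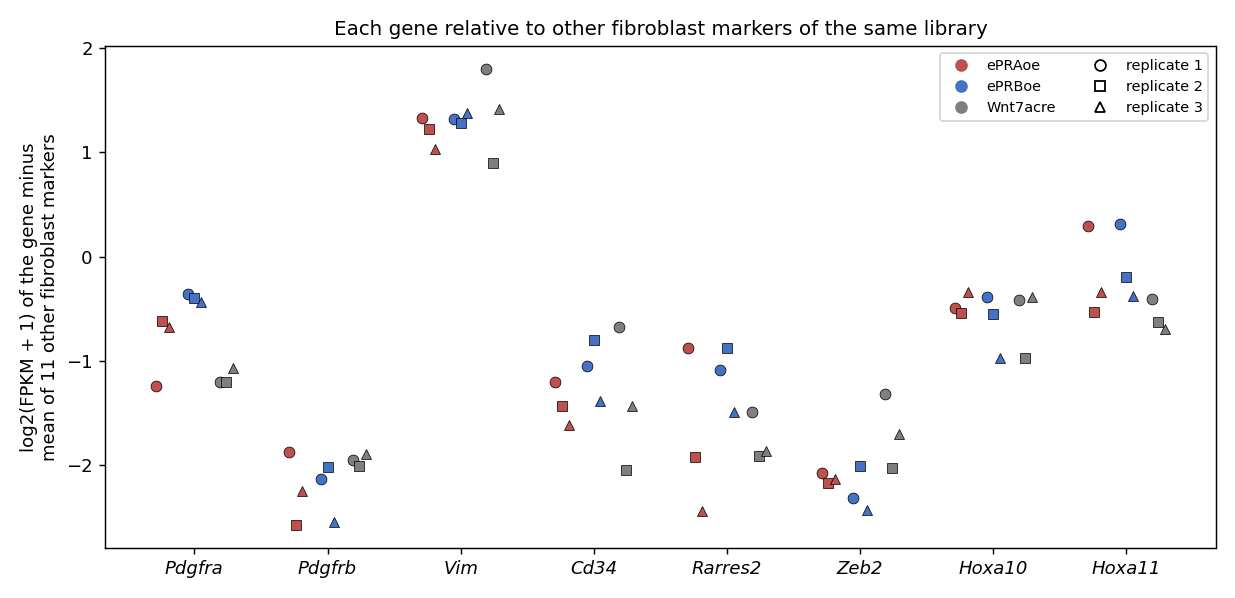
log2(FPKM + 1) of each of the 8 genes minus the mean of 11 other fibroblast markers in the same library, with a point for each library coloured by genotype and shaped by replicate. All pairs of genotypes overlap for Vim, Cd34, Rarres2 and Hoxa10, and for Pdgfra the ePRBoe points, at -0.35 to -0.44, lie above the ePRAoe points, at -1.24 to -0.62, and the Wnt7acre points, at -1.20 to -1.07.

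Within genotypes the 8 genes tended to be high in the same library. ePRAoe replicate 3 was the highest of its group for 7 of the 8 genes and had the highest summed fibroblast markers of its group, at 327 FPKM, with the lowest summed epithelial markers of all 9 libraries, at 1786 FPKM. Wnt7acre replicate 3 was the highest control for 6 genes and ePRBoe replicate 2 the highest of its group for 5. Neither had the highest summed fibroblast markers of its group. Wnt7acre replicate 3 had 119 FPKM, against 126 FPKM in replicate 2, and ePRBoe replicate 2 had 391 FPKM, against 426 FPKM in replicate 3. How many of all tested genes were highest in these libraries was not counted. Over the 28 pairs of the 8 genes, Pearson's r of log2(FPKM + 1) across the 9 libraries was 0.832 to 0.970, with a median of 0.925. The libraries fall into 3 genotypes, so these r values mostly restate the genotype differences, and they carry no p-value.

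By the same measure over 9 libraries, the tested genes most like Pdgfra were Col11a1 (r = 0.991), Mxra8 (0.990) and Mfap2 (0.989). Those most like Pdgfrb were Adamts12 (0.981), Zfp189 (0.981) and Armcx2 (0.978), and those most like Vim were Efemp1 (0.988), Igdcc4 (0.984) and Nid2 (0.983). Cd34 was nearest to Nid2 (0.985), Lama4 (0.977) and Lrp1 (0.976). The laminin and nidogen genes among these encode basement membrane proteins. Rarres2 was nearest to Ms4a8a (0.980), Ndufa4l2 (0.977) and Lzts2 (0.975). Zeb2 was nearest to Maoa (0.992), Naalad2 (0.985) and Zfp521 (0.984). Hoxa10 was nearest to Fkbp14 (0.987), Map2 (0.986) and Nid1 (0.985), and Hoxa11 was close to Gja1 (0.986) and Gzmc (0.983). Gja1 encodes the gap junction protein connexin 43, and Gzmc is a granzyme of natural killer cells.

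Markers of further cell types moved beside the 8 genes to different degrees. An unadjusted p under 0.05, counted for these lists too, was reached by 3936 of all 12347 tested genes in ePRAoe and 3182 in ePRBoe. Of 8 tested endothelial markers 0 passed in ePRAoe by limma, with 0 at an unadjusted p under 0.05, and Cdh5 and Pecam1, the most abundant, had differences of 0.48 (adjusted p = 0.204) and 0.03 (0.971). In ePRBoe 2 of the 8 rose, the endothelial cadherin Cdh5 by 1.87 (adjusted p = 0.0112) and endoglin (Eng) by 1.67 (0.0229), both lost without ePRAoe replicate 2 or Wnt7acre replicate 3, and Eng also without ePRBoe replicate 1 or 2 (up to 0.0505 and 0.0801). The summed endothelial level was 17.6 to 36.7 FPKM in ePRAoe, 53.7 to 83.3 FPKM in ePRBoe and 16.1 to 23.4 FPKM in Wnt7acre. Of 3 tested pericyte markers 0 passed in ePRAoe or ePRBoe by limma, with 1 at an unadjusted p under 0.05 in each. The pericyte marker Rgs5 had differences of 0.80 in ePRAoe (adjusted p = 0.221) and 1.63 in ePRBoe (0.0884), Mcam had 0.41 (0.449) and 0.88 (0.227) in the same order, and the list summed to 11.8 to 27.9 FPKM in ePRAoe, 24.2 to 44.3 FPKM in ePRBoe and 7.59 to 16.3 FPKM in Wnt7acre.

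Of 4 tested smooth muscle markers 0 passed in ePRAoe by limma, with 1 at an unadjusted p under 0.05, and desmin (Des) had 0.45 (adjusted p = 0.131) and Tagln -0.03 (0.976). In ePRBoe 1 of the 4 rose, Des, by 1.90 (adjusted p = 0.00555), which held with any 1 library left out. The summed smooth muscle level was 13.2 to 25.6 FPKM in ePRAoe, 37.6 to 85.4 FPKM in ePRBoe and 10.4 to 22.2 FPKM in Wnt7acre, with ePRBoe replicate 2 the highest library. Of 9 immune markers 0 rose and 3 fell in ePRAoe, while 6 rose and 0 fell in ePRBoe, and the other 6 in ePRAoe and 3 in ePRBoe did not pass. Tyrobp, which couples activating receptors of leukocytes to kinases, fell by 1.11 in ePRAoe and rose by 1.499 in ePRBoe, where leaving out Wnt7acre replicate 3 ended the call (0.0740). The Fc receptor chain Fcer1g and the macrophage receptor Csf1r fell by 0.97 and 0.85 in ePRAoe, the call of Csf1r being lost without ePRAoe replicate 2 or 3, ePRBoe replicate 2 or Wnt7acre replicate 2 or 3 (up to 0.126). Nkg7, of natural killer cells, rose by 2.21 in ePRBoe, Cd52 by 1.67 and Laptm5 by 1.15. Cd52 lost its call without Wnt7acre replicate 3 (0.147), and Laptm5 without that library or ePRBoe replicate 2 or 3 (up to 0.176). Summed immune levels were 76.5 to 96.4 FPKM in ePRAoe, 269 to 312 FPKM in ePRBoe and 103 to 190 FPKM in Wnt7acre. Between ePRBoe and ePRAoe 5 of the 9 immune markers rose, by limma, namely Tyrobp, Nkg7, Fcer1g, Cd52 and the complement gene C1qa, and each lost its call without ePRAoe replicate 2, ePRBoe replicate 1 or ePRBoe replicate 2. Tyrobp lost it with no other library, at up to 0.189. Fcer1g and Nkg7 also lost it without Wnt7acre replicate 3, at up to 0.385 and 0.349. C1qa and Cd52 held it in 3 and 2 of the 9 fits. In the same comparison limma called 0 of the 11 other fibroblast markers, of which 3 had an unadjusted p under 0.05. Over all 12347 tested genes 2310 had such a p in this comparison.

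Of the 16 luminal epithelium markers 2 rose and 4 fell in ePRAoe, and 1 rose and 1 fell in ePRBoe, with medians of -0.07 and -0.23. The protease inhibitor Spint1 fell by 1.30 in ePRAoe and by 1.22 in ePRBoe, and the epithelial factor Elf3 rose by 0.74 in ePRAoe and by 1.01 in ePRBoe. For Elf3 both genotypes overlapped with Wnt7acre. Its Wnt7acre replicate 1, at 36.1 FPKM, was above ePRAoe replicates 2 and 3, at 30.7 and 27.5 FPKM, and ePRBoe replicate 2, at 33.3 FPKM. In ePRAoe the splicing factor Esrp1 rose by 0.61. The ePRAoe call of Spint1 held with any 1 library left out. The ePRAoe calls of Esrp1 and Elf3 were lost without ePRAoe replicate 2 or 3 or Wnt7acre replicate 2 or 3 (up to 0.0667 and 0.0696). In ePRBoe the calls of Spint1 and Elf3 were lost without ePRAoe replicate 2, ePRBoe replicate 3 or Wnt7acre replicate 3, and Spint1 also without ePRBoe replicate 2 (up to 0.140 and 0.0989). No marker of the fibroblast, endothelial, pericyte, smooth muscle, immune or luminal epithelium lists was at 0 in all 3 libraries of a genotype. Mesothelial markers summed to at most 3.99 FPKM in any library, and their 1 tested member, Upk3b, did not pass (-0.69, adjusted p = 0.333 in ePRAoe and -0.25, adjusted p = 0.817 in ePRBoe). Gland markers, among which Prss28 was listed at 0 in all ePRAoe libraries, summed to 0.096 to 0.667 FPKM in ePRAoe, 1.17 to 38.5 FPKM in ePRBoe and 1.54 to 11.9 FPKM in Wnt7acre. Their 1 tested member, Prss29, did not pass (-1.62, adjusted p = 0.329 in ePRAoe and 0.61, adjusted p = 0.805 in ePRBoe). The share of stromal, endothelial, smooth muscle and immune cells in each captured sample is not given, and the part of such cells in the levels of the 8 genes was not tested.

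**Figure D5:**
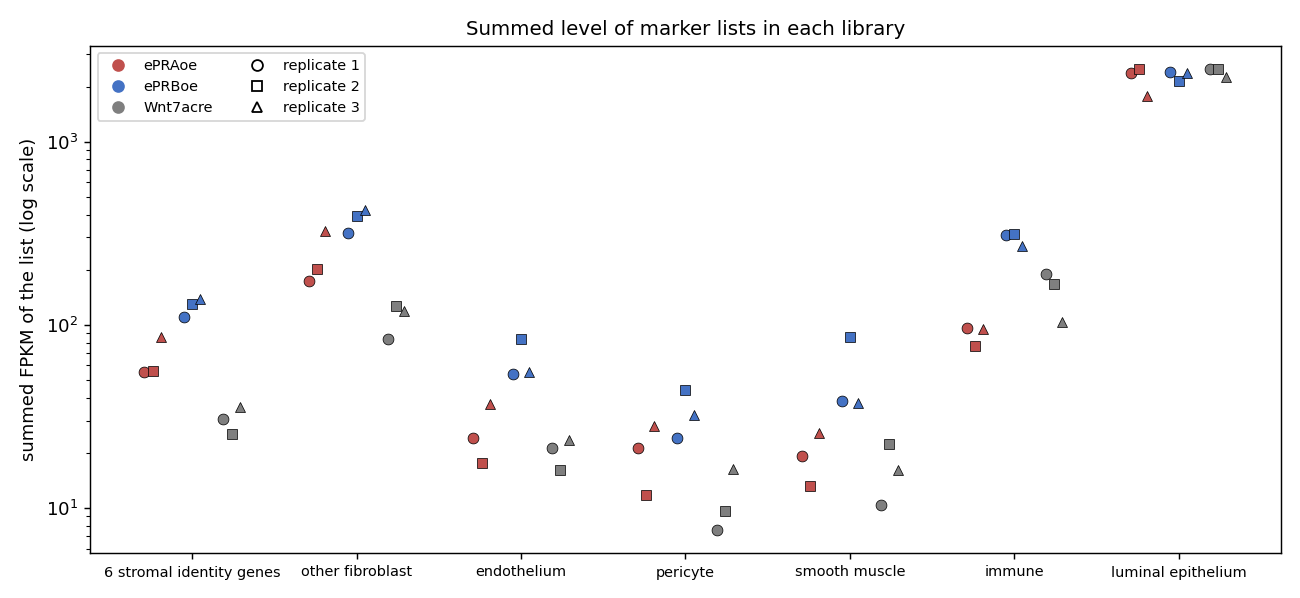
Summed FPKM, on a log scale, of the 6 stromal identity genes and of the other marker lists, with a point for each library coloured by genotype and shaped by replicate. The 6 identity genes sum to 55.5 to 86.3 FPKM in ePRAoe, 110 to 138 FPKM in ePRBoe and 25.4 to 35.5 FPKM in Wnt7acre. Group means of the 11 other fibroblast markers are ordered the same way, but ePRAoe replicate 3, at 327 FPKM, lies above ePRBoe replicate 1, at 317 FPKM. The luminal epithelium sums differ little.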

How the data were processed

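RNA from laser-captured uterine luminal epithelium of 9 samples had been sequenced, and the authors deposited 1 table of FPKM per gene symbol, per the file headers. STAR 2.5.2b, featureCounts 1.5.0-p1 of Subread, edgeR 3.28.0, limma 3.42.2 and the build mm10 are named in the submitters' processing notes. Not given in the sources used here are the annotation, the gene lengths and the strand setting behind the FPKM. FPKM are normalized for depth and length, so no count test was run.

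Values were transformed as log2(FPKM + 1), which understates changes of genes near 1 FPKM. Genes reaching 1 FPKM in 3 or more libraries entered limma 3.58.1 in R 4.3.3, with terms for genotype and sequencing run, moderated variances that followed the expression trend, and 4 residual and 3.64 prior degrees of freedom. The procedure was tested on simulated data. Groups were taken from the labels. The genes and lists were chosen with earlier results of these data known. Within each marker list every called gene was named where 4 or fewer passed in a comparison, otherwise the 4 with the smallest p, and where none passed the 2 with the highest mean FPKM. For each of the 8 genes the 3 tested genes with the highest Pearson r were named, without Gm and Rik symbols. A few genes that these rules name are not reported here.

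The depth of the libraries is not stated. For 7 of the 8 genes, all but Zeb2, the 9 values were whole multiples of 1 step, within 0.0006 FPKM or, for Vim, 0.002 FPKM. Over 243 low genes that step differed from its mean over libraries by -0.0376% to 0.0369%. Taken as 1 read, it puts 15 to 2605 reads behind the values of the 7 genes. No test rests on these reads. Positions came from GENCODE M21 on mm10, matched by symbol, and upstream sequences from RefSeq. Of the 8 genes 6 matched an entry there, all but Rarres2 and Pdgfrb. Alternatives varied the run term, pseudocount, filter, scaling, variance trend and samples (21 fits), besides differences within each run.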

Additional observations from a re-analysis of the deposited data

How the results depend on the processing

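Of the 8 genes, 6 passed in ePRAoe against Wnt7acre, and 1 passed (Hoxa11) when only those genotypes were fitted without a run term. With 1 library left out the count was 2 to 6, with 2 both without ePRAoe replicate 3 and without Wnt7acre replicate 2, which share run 2 and so give the same differences. In ePRBoe against Wnt7acre 7 passed, and 3 to 8 with 1 library left out, with 3 without ePRAoe replicate 2 and 4 without Wnt7acre replicate 3. In ePRBoe against ePRAoe 0 passed, and 0 to 1 with 1 library left out. Apart from Hoxa10 between ePRBoe and ePRAoe, whose difference was -0.20 to 0.78 with 1 library left out and -0.20 without ePRAoe replicate 2, no direction of the 8 genes changed in any of the 21 fits. Between ePRBoe and ePRAoe the Pgr difference, -0.10 and not passing, was -0.39 to 0.25 with 1 library left out, 0.25 without ePRAoe replicate 2 and 0.10 without ePRAoe replicate 3 or Wnt7acre replicate 2. Without ePRAoe replicate 2, Wnt7acre replicate 3 was the only library of another genotype in run 1. The differences of ePRBoe from Wnt7acre then rest on that library, and ePRBoe is linked to ePRAoe only through Wnt7acre. Without Wnt7acre replicate 3, ePRBoe is linked to Wnt7acre only through ePRAoe. What the libraries themselves contribute to these changes was not tested.

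Over all genes, 1998 passed in ePRAoe against Wnt7acre, 713 with only those 2 genotypes and 723 to 2705 with 1 library left out. In ePRBoe against Wnt7acre 1098 passed, 1786 without a run term, 2169 with only those 2 genotypes, 653 when a mean of 5 FPKM or more was required, and 231 to 1604 with 1 library left out. In ePRBoe against ePRAoe 40 passed, 7 without a run term, 19 with no filter, 22 with median-of-ratios factors, 15 with quantile normalization, 25 as TPM, 0 with only those 2 genotypes, and 0 to 576 with 1 library left out. The low count of 653 follows in part from the smaller number of genes tested, among which Pdgfrb and Zeb2 were not. Median-of-ratios factors and quantile normalization moved the median difference of all genes by -0.14 and -0.10 in ePRBoe against Wnt7acre, where 56.4% and 55.7% of calls were higher, against 72.1%, and by -0.18 each in ePRBoe against ePRAoe.

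With the replicate number as a block in place of the run, 5 of the 8 genes passed in ePRAoe, 8 in ePRBoe and 0 between them. Cd34 was lost in ePRAoe (adjusted p = 0.0554) and Zeb2 gained in ePRBoe (0.0216), with 1113 genes in all in ePRAoe against Wnt7acre and 4 in ePRBoe against ePRAoe. Deviations of libraries with the same number correlated at -0.23 to 0.17, so the numbers were not taken to pair samples. In ePRAoe against Wnt7acre, Cd34 was also lost with a pseudocount of 5 (0.0579), with no filter (0.0519) and as TPM (0.0516), and in ePRBoe Zeb2 passed with no run term (0.0144) and with no variance trend (0.0472). With only 2 genotypes fitted, Vim (0.0584), Pdgfra and Cd34 (0.0754 each), Rarres2 (0.0606) and Hoxa10 (0.0685) lost their ePRAoe calls and Zeb2 passed in ePRBoe (0.00756). Among the 7 genes with recovered reads, depth limits Rarres2 most, and no outlier test was run on groups of 3.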
